A study of Mus musculus with 24 samples.

Results

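The Reg family lectins are small secreted C-type lectin proteins, and the 5 genes described here are Reg3b, Reg3g, Reg3a, Reg1 and Reg4. They were taken by symbol, as 5 of the 55421 genes in the count table. RNA was measured in 24 libraries from small intestinal crypts of 8 mice, with 1 library each from the stem, the transit-amplifying (TA) and the Paneth fraction. The 4 control mice carried a single conditional Setd1a allele beside a wild-type one (Setd1aFC/+, called het), and the 4 knockout mice carried the conditional allele on both chromosomes (Setd1aFC/FC, called hom). BN44, BO27, BO58 and BP03 are the het mice, and BN45, BO25, BO57 and BP04 the hom mice, and values are listed in that order. All 8 mice carried Lgr5-eGFP-CreERT2, which places the tamoxifen-dependent Cre under the control of the stem cell gene Lgr5. All 8 received 1 mg tamoxifen on each of 3 days, so the controls carried Cre, tamoxifen and a conditional allele too, and cells were sorted 4 days after induction. The labels used here give no age. Deletion could start only in Lgr5-expressing cells, and how many cells of each fraction lacked Setd1a was not measured.

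Crypt cells defend the epithelium in part with secreted antimicrobial proteins. Reg3b and Reg3g encode lectins that bind bacterial surface molecules, and Reg3g is known for killing Gram-positive bacteria and keeping them away from the epithelium. Both genes are known to be induced through MyD88 signalling downstream of microbes and through interleukin-22 and STAT3. Reg3a belongs to the same subfamily. Reg1 was first described in regenerating pancreatic islets and is also made by the intestinal epithelium. Reg4, the most divergent member, is used as a marker of enteroendocrine cells and of deep secretory cells of the colon crypt.

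In the mm10 assembly, 4 of the 5 genes lie close together on chromosome 6. Reg3b (ENSMUSG00000071356) spans chr6:78370657-78373466 on the plus strand, Reg3a (ENSMUSG00000079516) chr6:78380709-78383827 on the plus strand, Reg1 (ENSMUSG00000059654) chr6:78422711-78428667 on the plus strand and Reg3g (ENSMUSG00000030017) chr6:78466269-78468872 on the minus strand. Reg4 (ENSMUSG00000027876) lies apart, at chr3:98222156-98236748 on the plus strand. The neighbouring genes Reg2 and Reg3d were hardly detected: Reg2 stood at no more than 0.022 CPM on average in any group, and Reg3d was highest in TA libraries, at 0.661 ± 0.258 CPM in het and 0.686 ± 0.458 CPM in hom (SD, n = 4 each). The coding transcripts of Reg3b and Reg3g were 77.6% identical over 544 aligned bases, and their longest shared run was 35 bases. Those of Reg3a and Reg3b were 77.8% identical over 562 bases, with a longest shared run of 24 bases. Only fragments that fall wholly within a shared run cannot be assigned between these genes by their bases, and how many did was not counted.

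The sequences just upstream of Reg3b and Reg3g are shown because these are the members whose levels followed each other most closely over animals. They are the 178 bases before the RefSeq transcript start (GRCm38.p6), written 5′ to 3′ on the strand of each gene. Capitals mark TATAAA and, in Reg3b, the STAT motif TTCNNNGAA. The last 24 bases of the Reg3b stretch are also part of an exon of a Reg3b transcript with an earlier start.
Reg3b, chr6:78370707-78370884, plus strand: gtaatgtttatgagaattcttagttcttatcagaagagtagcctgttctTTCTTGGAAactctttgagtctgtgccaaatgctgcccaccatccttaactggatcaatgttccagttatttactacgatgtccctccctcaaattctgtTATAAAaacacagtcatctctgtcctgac
Reg3g, chr6:78468875-78469052, minus strand: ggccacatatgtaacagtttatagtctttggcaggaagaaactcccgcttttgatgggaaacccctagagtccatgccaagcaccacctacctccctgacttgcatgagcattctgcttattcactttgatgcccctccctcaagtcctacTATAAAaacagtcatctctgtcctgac

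The Reg3b and Reg3g stretches aligned over 122 bases at 73.8% identity, with a longest shared run of 20 bases. TATAAA began 29 bases before the Reg3b start, 27 bases before that of Reg3g (which also held it on the opposite strand, from 161 to 156 bases before the start) and 30 bases before that of Reg1. It was searched on both strands of the 250 bases before each start, as were the other motifs, and 12.4% of 32851 promoters of that length held it. The STAT motif was found in the window of Reg3b, as TTCTTGGAA from 129 to 121 bases before the start, and 7.02% of promoters held it. Among the 5 members, the C/EBP motif TTGCNNAA was found only in the Reg3a window (9.56% of promoters). The motifs CAGCTG of E-boxes (13.0% of promoters), CAAAGTCCA of HNF4 (0.384%) and TTTATGG of CDX factors (2.43%) were in none of the 5 windows, and TATAAA was in neither the Reg3a nor the Reg4 window. The CDX letters and TATAAA on the opposite strand share the run TTTAT, so these searches can overlap.

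Library totals ran from 24.73 to 47.05 M counts. Levels are in CPM on library sizes scaled by TMM over all 24 libraries, given as mean ± SD of 4 animals. The TMM factors were 1.047 to 1.221 in stem and TA libraries, and lower in the Paneth fraction, at 0.664 to 1.108 in het and 0.448 to 0.953 in hom, so most Paneth levels stand above their CPM on plain library totals. The stem and Paneth fractions held the markers of their labels. Stem cell markers took 2.97% to 5.13% of counts in stem libraries, and 12 Paneth markers took 8.47% to 48.0% in Paneth libraries against 0.0737% to 0.819% elsewhere. No list of TA cell markers was read, so the TA label was not checked in this way. The Paneth fraction also held enteroendocrine markers (0.21% to 0.873% of counts, 12 of 12 above 1 CPM) and tuft markers (0.131% to 0.405%, 10 of 10 above 1 CPM). TA libraries held goblet markers (0.563% to 1.84%, 10 of 10 above 1 CPM). Pancreatic acinar markers, another tissue rich in Reg transcripts, reached at most 0.00192% of counts and Prss2 was at 0 in all 24 libraries. Setd1a counts over the whole gene were 5.63 ± 1.58 CPM in het and 5.18 ± 1.49 CPM in hom stem libraries, which does not check the loss of an exon. In bulk fractions, fewer cells of a type and less RNA per cell cannot be told apart.

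Together the 5 members took 0.138 ± 0.0707% of all counts in het and 0.152 ± 0.123% in hom stem libraries (n = 4 in each group). The TA libraries held 0.465 ± 0.184% and 0.531 ± 0.391%, and the Paneth libraries 0.775 ± 0.572% and 0.538 ± 0.263%. Reg3b and Reg3g made up most of this, with 52.1% to 98.8% of the members' counts in every library. Per kilobase of coding transcript, Reg3g was the most abundant member on average in all 6 groups, from 884 ± 515 RPKM in het stem to 9409 ± 9020 RPKM in het Paneth libraries. Per kilobase of the whole gene model, which for Reg3g is 2114 bases against a coding transcript of 771 bases, the order of the pair turned in stem libraries, with Reg3b at 395 ± 212 and Reg3g at 322 ± 188 RPKM in het and 408 ± 406 and 393 ± 298 RPKM in hom. On coding transcripts Reg3b came next in 4 groups, at 577 ± 309 and 594 ± 592 RPKM in het and hom stem and at 1601 ± 847 and 1674 ± 1416 RPKM in het and hom TA libraries. In Paneth libraries Reg4 and Reg3b had overlapping levels per length, with Reg4 at 1538 ± 1315 and 2199 ± 1289 RPKM and Reg3b at 1916 ± 1774 and 1396 ± 1111 RPKM in het and hom. Reg1 and Reg3a stayed at or below 260 ± 136 RPKM, the mean of Reg1 in hom TA libraries.

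**Figure D1:**
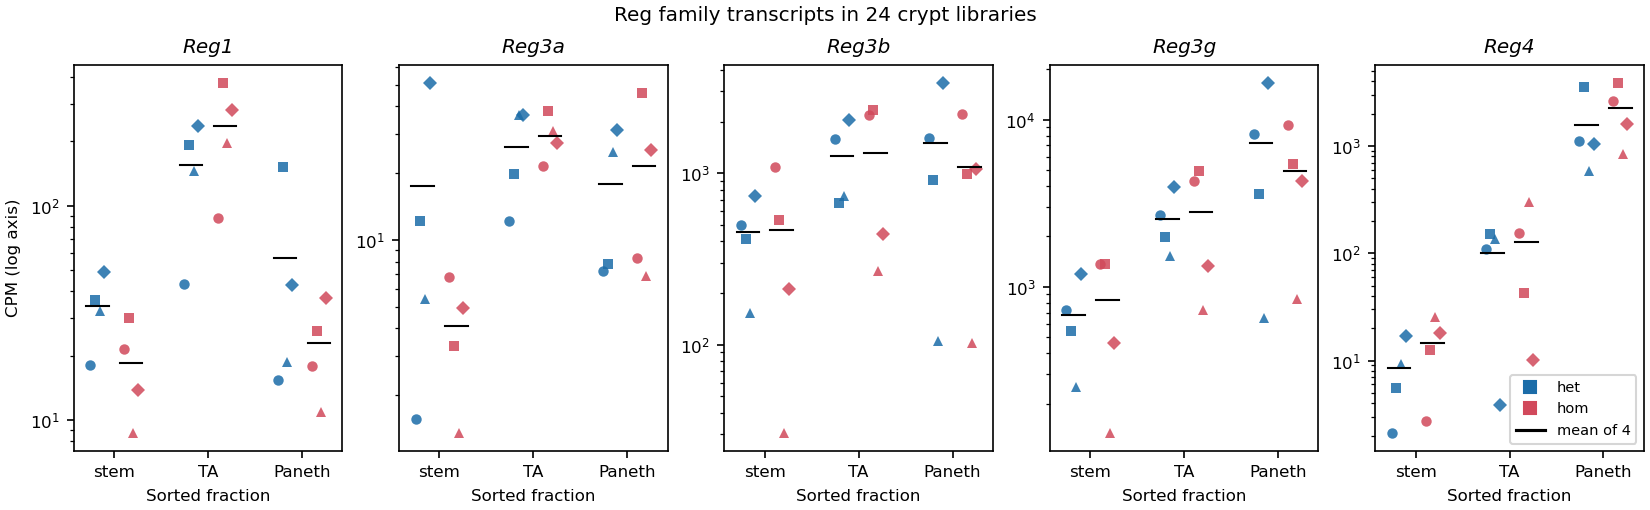
CPM of Reg1, Reg3a, Reg3b, Reg3g and Reg4 (log axes) in the stem, TA and Paneth fractions, 1 point per library, blue for het and red for hom, with a bar at the mean of 4; each shape within a colour is 1 animal, and a shared shape does not pair a het with a hom animal. Reg3g is highest in most Paneth libraries, Reg1 in TA libraries and Reg4 in all 8 Paneth libraries, while het and hom points overlap in every panel.

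Reg3g, the bactericidal lectin, had its lowest levels in stem libraries. In het animals BN44, BO27, BO58 and BP03 it stood at 731, 542, 253 and 1199 CPM in stem, 2672, 1977, 1528 and 3967 CPM in TA and 8162, 3606, 650 and 16599 CPM in Paneth libraries. The stem and TA values did not overlap, while BO58 had less Reg3g in its Paneth than in its TA library. In hom animals BN45, BO25, BO57 and BP04 it stood at 1361, 1370, 133 and 464 CPM in stem, 4294, 4925, 731 and 1328 CPM in TA and 9271, 5429, 844 and 4277 CPM in Paneth libraries. On this scale each hom animal had more Reg3g in TA than in stem and more in Paneth than in TA, whereas on library totals BN45, BO25 and BO57 had less in Paneth than in TA. The ranges of the 3 hom groups overlapped.

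In het animals, Reg3g was lower in stem than in TA libraries, with a log2 fold change of -1.90 (SE 0.45, edgeR adjusted p = 0.036). Of the 5 members, 2 were called in that comparison, Reg1 being the other, against 6.26% of all genes tested. The Reg3g call ended without BN44, BO27 or BO58 (edgeR adjusted p = 0.11, 0.16 and 0.054), and in 1 fit of all 24 libraries (0.25). It held with each animal as a replicate block (0.0027). Leaving out 1 het animal also lowered the calls over all genes in this comparison, from 1013 to at most 801. In hom animals the same comparison gave -1.76 (SE 0.76), which did not pass without the block (edgeR adjusted p = 0.26) and passed with it (log2 -1.88, adjusted p = 0.0038).

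Between Paneth and stem libraries Reg3g was higher in the Paneth fraction in both genotypes, by log2 3.45 (SE 0.85, edgeR adjusted p = 0.013) in het and 2.62 (SE 0.82, adjusted p = 0.036) in hom. In het, 2 of 5 members were called, against 28.3% of all genes. In hom, 3 of 5 were called, against 30.5%. The het call ended without BN44 (log2 3.41, adjusted p = 0.062). The hom call ended without BN45, BO25 or BP04 (adjusted p = 0.12, 0.076 and 0.11), and when library totals replaced the TMM scaling (log2 1.71, adjusted p = 0.070). Between Paneth and TA libraries Reg3g did not pass, with log2 1.54 (SE 0.75, edgeR adjusted p = 0.15) in het and 0.87 (SE 0.74, adjusted p = 0.41) in hom, and the hom value was -0.09 on library totals.

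Reg3b, the close relative of Reg3g, followed it at lower levels. In het animals, in the order above, it stood at 502, 415, 152 and 738 CPM in stem, 1577, 670, 735 and 2033 CPM in TA and 1613, 916, 105 and 3368 CPM in Paneth libraries. In hom animals it stood at 1087, 532, 30.4 and 212 CPM in stem, 2182, 2352, 269 and 440 CPM in TA and 2223, 992, 102 and 1056 CPM in Paneth libraries. Every animal had more Reg3b in TA than in stem, whereas the step from TA to Paneth depended on the scale: it went down in 3 of 8 animals (BO58, BO25 and BO57) on TMM-scaled CPM and in 6 of 8 on library totals, where BN44, BO27 and BN45 joined them.

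By edgeR on filtered counts from all 4 animals, without the animal block, Reg3b passed in none of the 6 comparisons between fractions. Between stem and TA the log2 fold change was -1.47 (SE 0.49, edgeR adjusted p = 0.12) in het and -1.50 (SE 0.95, adjusted p = 0.47) in hom. With each animal as a replicate block both passed, at log2 -1.52 (adjusted p = 0.014) and -1.83 (adjusted p = 0.036), so that 3 of 5 members were called in het and 4 of 5 in hom, against 11.4% and 8.94% of all genes with the block. The Paneth against stem difference in hom animals, log2 1.28 (SE 0.99, edgeR adjusted p = 0.36), also passed with the block, at 1.53 (adjusted p = 0.0090). In het it was 1.77 (SE 0.80, adjusted p = 0.12), and it passed without BO58 (log2 1.85, adjusted p = 0.026) and without the filter on low counts (log2 1.72, adjusted p = 0.026). Paneth against TA gave 0.28 (SE 0.76) in het, with the opposite sign on library totals (-0.38) and with the block (-0.27), and -0.20 (SE 0.87) in hom.

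Reg3a, of the same subfamily, was present at low levels, and TA libraries held it most evenly. In het animals it stood at 1.56, 12.3, 5.43 and 51.0 CPM in stem, 12.2, 20.0, 36.7 and 36.6 CPM in TA and 7.25, 7.80, 25.0 and 31.2 CPM in Paneth libraries. In hom animals it stood at 6.81, 3.32, 1.35 and 4.92 CPM in stem, 21.5, 37.9, 31.0 and 27.2 CPM in TA and 8.26, 45.7, 6.89 and 25.5 CPM in Paneth libraries. The hom stem values lay below all hom TA and all hom Paneth values, while the het stem library of BP03 was the highest Reg3a library of all 24.

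In hom animals Reg3a was lower in stem than in TA libraries (log2 -2.85, SE 0.43, edgeR adjusted p = 0.0064), and 2 of 5 members were called, against 4.61% of all genes. The call ended without BO25 (log2 -2.61, adjusted p = 0.067) and in 1 fit of all 24 libraries (0.052). Reg3a was also higher in hom Paneth than in hom stem libraries, by log2 2.41 (SE 0.67, edgeR adjusted p = 0.022). That call ended without BO25 (1.65, adjusted p = 0.13) or BP04 (2.42, adjusted p = 0.071) and on library totals (1.83, adjusted p = 0.053). In het animals the corresponding values were -0.59 (SE 0.84, edgeR adjusted p = 0.77) and 0.05 (SE 0.87, adjusted p = 0.97). Without BP03 the het stem against TA value was -1.85 (adjusted p = 0.25).

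Reg1, named for regenerating islets, was the member centred on the TA fraction. In het animals it stood at 18.1, 36.3, 32.5 and 49.2 CPM in stem, 43.1, 193, 145 and 237 CPM in TA and 15.5, 151, 18.7 and 42.7 CPM in Paneth libraries. In hom animals it stood at 21.4, 30.0, 8.70 and 13.8 CPM in stem, 87.6, 375, 196 and 281 CPM in TA and 17.9, 26.0, 10.9 and 37.1 CPM in Paneth libraries. In each of the 8 animals the TA library held the most Reg1, and in hom animals the TA values did not overlap those of either other fraction.

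In stem libraries Reg1 was lower than in TA libraries in both genotypes, with log2 fold changes of -2.18 (SE 0.48, edgeR adjusted p = 0.026) in het and -3.67 (SE 0.51, adjusted p = 0.0044) in hom. The het call ended without BO27, BO58 or BP03 (adjusted p = 0.16, 0.14 and 0.082) and in 1 fit of all 24 libraries (0.057). In the hom animals the call held without any 1 animal, with adjusted p of 0.016 to 0.036. Reg1 was lower in hom Paneth than in hom TA libraries too (log2 -3.33, SE 0.48, edgeR adjusted p = 0.0012), where 2 of 5 members were called, against 28.5% of all genes. The het value was -1.43 (SE 0.72, adjusted p = 0.16), and it passed with each animal as a replicate block (-1.80, adjusted p = 0.019), without the filter on low counts (adjusted p = 0.038) and without BO27 (-2.44, adjusted p = 0.030), the animal with 151 CPM of Reg1 in its Paneth library. Whether the het and hom fraction differences of Reg1 differ is tested by the interactions given with the genotype comparison.

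**Figure D2:**
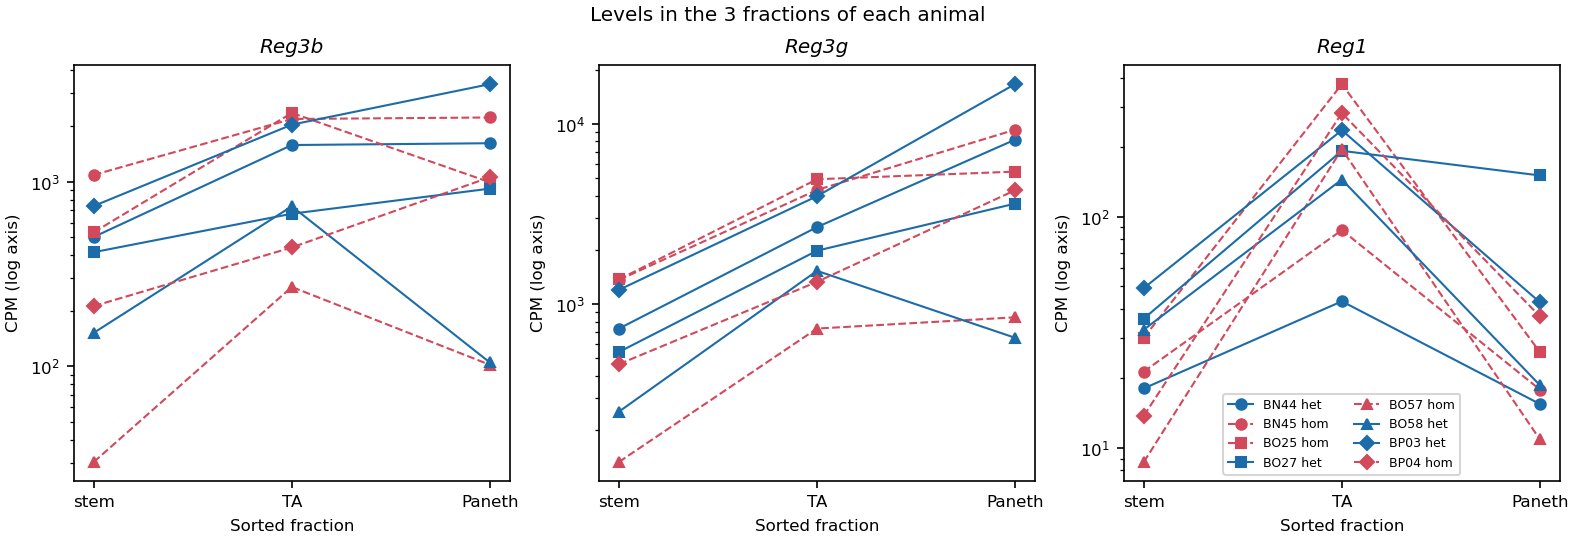
CPM of Reg3b, Reg3g and Reg1 (log axes) in the stem, TA and Paneth fractions, 1 line per animal, solid blue for het and dashed red for hom. The Reg1 line of each animal peaks in TA, and the Reg3b and Reg3g lines of BO57 and BO58 run low in the stem and Paneth fractions.

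Reg4, a marker of enteroendocrine cells, separated the fractions most widely. In het animals it stood at 2.10, 5.58, 9.37 and 16.9 CPM in stem, 109, 150, 136 and 3.82 CPM in TA and 1113, 3553, 579 and 1038 CPM in Paneth libraries. In hom animals it stood at 2.73, 12.6, 25.4 and 17.9 CPM in stem, 156, 42.5, 299 and 10.1 CPM in TA and 2641, 3884, 851 and 1605 CPM in Paneth libraries. Every Paneth library held more Reg4 than any stem or TA library, and the TA libraries of BP03 and BP04 held no more than some stem libraries.

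Paneth libraries were higher in Reg4 than stem libraries by log2 7.57 (SE 0.86, edgeR adjusted p = 0.00021) in het and 7.32 (SE 0.79, adjusted p = 0.00017) in hom. These were the calls among the members that held without any 1 animal in both genotypes, with adjusted p of at most 0.0027. Paneth libraries were also higher than TA libraries, by log2 3.99 (SE 0.95, edgeR adjusted p = 0.011) in het and 4.19 (SE 0.94, adjusted p = 0.0094) in hom. In het, Reg4 was the 1 of 5 members called in Paneth against TA, against 29.2% of all genes. Those calls ended without BN44 in het (log2 4.16, adjusted p = 0.054) and without BN45 in hom (4.18, adjusted p = 0.054). Between stem and TA Reg4 did not pass, with -3.57 (SE 0.96, edgeR adjusted p = 0.059) in het and -3.13 (SE 0.95, adjusted p = 0.10) in hom, and without BP03 the het value was -4.55 (adjusted p = 0.0088). DESeq2 called both (adjusted p = 0.0057 and 0.027), along with 12.1% of all genes in het and 9.85% in hom. The het difference also passed without the filter on low counts and in 1 fit of all 24 libraries (edgeR adjusted p = 0.044 each). Those settings called 2.71% and 4.39% of all genes.

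Enteroendocrine markers were set beside Reg4 in each fraction, and their levels in TA libraries are given first. Chga, which encodes the granule protein chromogranin A, stood at 23.6, 44.1, 18.5 and 0.701 CPM in the TA libraries of BN44, BO27, BO58 and BP03, and at 28.2, 4.85, 28.6 and 0.113 CPM in those of BN45, BO25, BO57 and BP04. The 3 TA libraries lowest in Chga were those lowest in Reg4. Gip, a hormone gene of the same list, was at 0 CPM in the TA libraries of BN44, BO25 and BP04 and at 92.9 CPM in that of BN45. Over the 8 TA libraries the log2 level of Reg4 and the summed enteroendocrine markers gave r = 0.86 (exact permutation p = 0.0043, adjusted p = 0.092 over 90 relations; rho = 0.74, p = 0.046), and r = 0.65 without BP03 and BP04. This relation did not pass the adjustment, and it was looked for after the values were seen. In the other fractions r was -0.02 in Paneth and -0.28 in stem libraries (exact permutation, adjusted p = 0.95 and 0.83). Other lists came as close to Reg4. With the Paneth markers r was 0.87 in stem, 0.51 in TA and 0.61 in Paneth libraries (exact permutation, adjusted p = 0.092, 0.52 and 0.42). With the goblet markers r was 0.78, 0.29 and 0.57 (adjusted p = 0.25, 0.81 and 0.48). The enteroendocrine list took 0.00157% to 0.0369% of counts in TA libraries, and its part in the Reg4 levels was not tested.

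**Figure D3:**
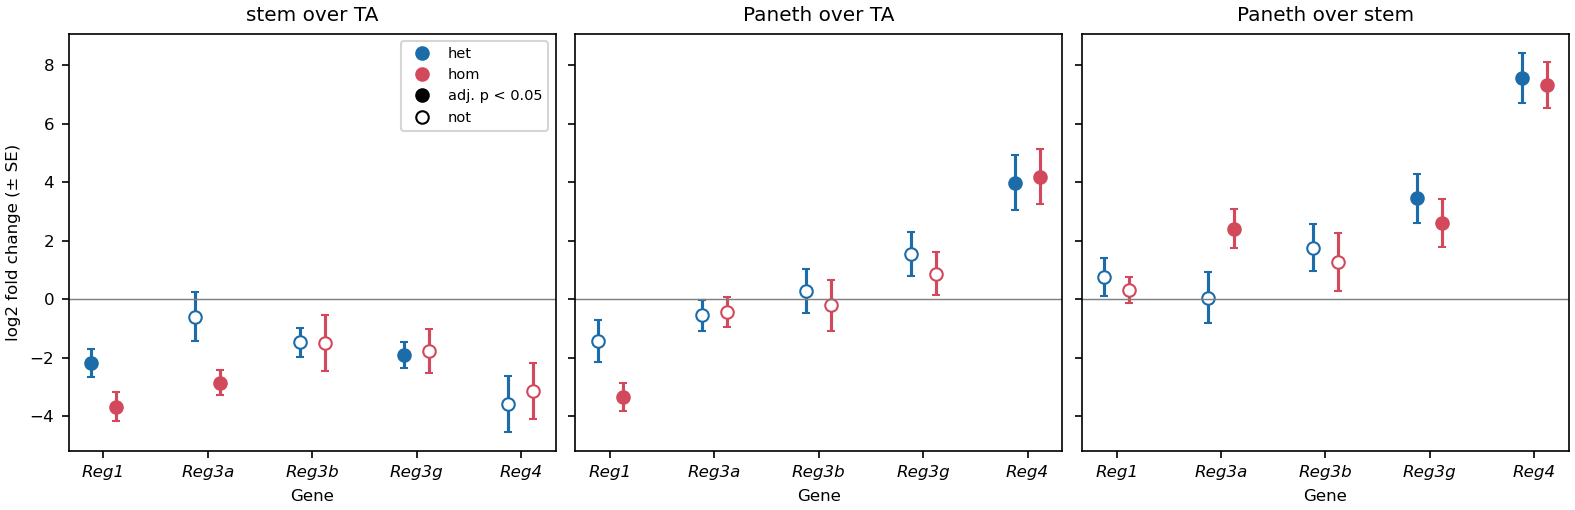
Log2 fold changes between fractions (edgeR, ± SE) for the 5 members, blue for het and red for hom, filled where the adjusted p was below 0.05. Reg4 is the furthest from 0 in Paneth against stem (7.57 and 7.32), and Reg1 is below 0 for stem against TA in both genotypes.

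Hom and het libraries were compared within each fraction, 4 against 4, to see whether the Setd1a genotype changed the members, and no member was called. By edgeR 0 of 5 members passed in stem, TA or Paneth libraries, against 0.0125%, 0% and 0% of all genes, and DESeq2 called none of the 5 either. At an unadjusted p under 0.05, 1 member was found in stem (6.73% of all genes), 0 in TA (5.92%) and 0 in Paneth libraries (2.28%). The het and hom values of every member overlapped in every fraction, whereas 4.86%, 4.16% and 1.76% of all genes did not overlap in stem, TA and Paneth libraries.

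The member at that unadjusted p was Reg3a in stem libraries, at 4.10 ± 2.32 CPM in hom and 17.6 ± 22.7 CPM in het (log2 -2.10, SE 0.91, edgeR adjusted p = 0.74). Without the het library of BP03 the value was -0.66. Summed enterocyte markers took 0.14% to 0.161% of counts in hom and 0.149% to 0.247% in het stem libraries, and Fabp1, the enterocyte fatty acid binding protein gene, reached 185 CPM in BO27 and 174 CPM in BP03 against 7.07 to 32.7 CPM in the other 6. These are the 2 stem libraries with the most Reg3a. Over the 8 stem libraries Reg3a and the summed enterocyte markers gave r = 0.89 (exact permutation p = 0.0023, adjusted p = 0.068 over 90 relations looked for after the values were seen). Without BP03 and BO57 r was 0.88 (adjusted p = 0.52). In TA and Paneth libraries r was 0.86 and 0.30 (exact permutation, adjusted p = 0.092 and 0.77). None of these passed the adjustment, and the part of enterocyte RNA in the genotype difference of Reg3a was not tested. Reg1 in stem libraries was 18.5 ± 9.30 CPM in hom and 34.0 ± 12.8 CPM in het (log2 -0.88, SE 0.40, edgeR adjusted p = 0.75).

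The other genotype differences did not pass either. In stem libraries they were 0.04 (SE 0.81) for Reg3b, 0.28 (SE 0.66) for Reg3g and 0.78 (SE 0.69) for Reg4 on the log2 scale, with edgeR adjusted p of 0.91 to 1.00. In TA libraries they were 0.61 (SE 0.52) for Reg1, 0.17 (SE 0.34) for Reg3a, 0.08 (SE 0.66) for Reg3b, 0.17 (SE 0.54) for Reg3g and 0.35 (SE 1.02) for Reg4 (adjusted p of 0.97 to 1.00). In Paneth libraries they were -1.30 (SE 0.66) for Reg1, 0.27 (SE 0.64) for Reg3a, -0.44 (SE 0.91) for Reg3b, -0.53 (SE 0.85) for Reg3g and 0.53 (SE 0.58) for Reg4 (adjusted p of 1.00 for each). The Reg1 value in Paneth libraries was -0.16 without the het library of BO27. With standard errors of 0.54 to 0.91 for Reg3b and Reg3g, log2 changes of that size could not be told from the spread between animals.

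**Figure D4:**
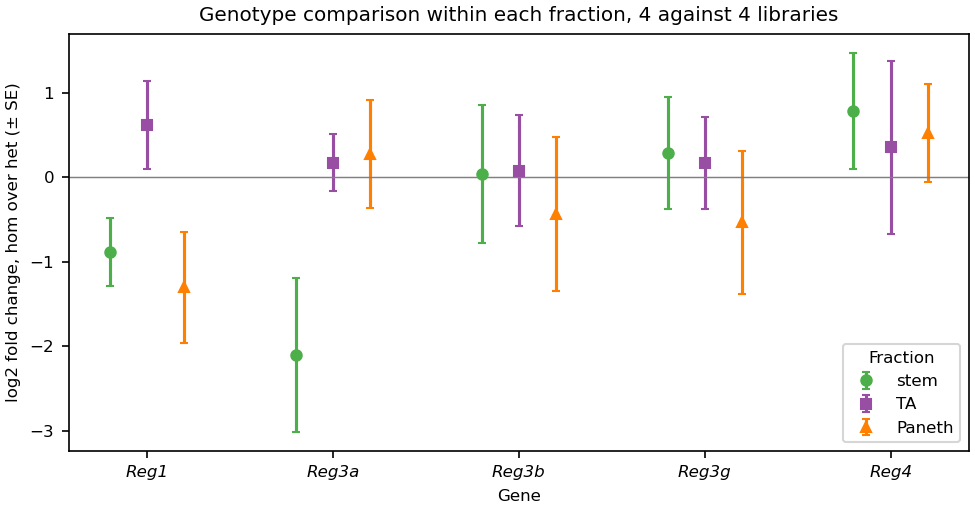
Log2 fold change of hom over het (edgeR, ± SE) for each member in stem (green), TA (purple) and Paneth (orange) libraries, 4 against 4. Reg3a in stem is furthest from 0 at -2.10, and no point passed the adjusted threshold.

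The genotype effects were also compared between fractions, in 1 fit of all 24 libraries. By edgeR 0 of 5 members passed for stem against TA, Paneth against TA or Paneth against stem, against 0%, 0.00516% and 0% of all genes, and DESeq2 called none. At an unadjusted p under 0.05 these comparisons held 0, 1 and 1 members, against 3.95%, 4.98% and 6.28% of all genes. They were Reg1, whose hom effect in Paneth less that in TA libraries was -1.91 (SE 0.88, edgeR adjusted p = 0.99), and Reg3a, whose hom effect in Paneth less that in stem libraries was 2.37 (SE 1.09, edgeR adjusted p = 0.76). The differences between het and hom animals in how Reg1 and Reg3a varied over the fractions were thus not past the threshold.

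Animals differed widely in Reg3b and Reg3g, and the ranges given first are over both genotypes. Over the 8 stem libraries Reg3b ran from 30.4 to 1087 CPM, a 35.7-fold range, and Reg3g from 133 to 1370 CPM, a 10.3-fold range. In Paneth libraries Reg3b ran from 102 to 3368 CPM (33.0-fold) and Reg3g from 650 to 16599 CPM (25.6-fold). The hom animal BO57 and the het animal BO58 were the lowest in both genes in the stem and Paneth fractions. In TA libraries, where Reg3b ran from 269 to 2352 CPM and Reg3g from 731 to 4925 CPM, the lowest were BO57 and BP04, both hom, and the highest were BO25 and BN45, also both hom.

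Reg3b and Reg3g followed each other over the 8 animals in every fraction. On log2(CPM + 1), Pearson's r was 0.95 in stem (rho 0.93), 0.98 in TA (rho 0.98) and 0.99 in Paneth libraries (rho 0.95), with exact permutation p of 0.00015, 0.00012 and 0.00015 for r and 0.0022, 0.0004 and 0.0011 for rho. Of 30 relations between members within a fraction these were the 3 that passed, with adjusted p of 0.0015 each for r and 0.012 to 0.022 for rho. Without the 2 animals farthest from the median, r was 0.85, 0.95 and 0.97, and with 6 animals none passed the adjustment (exact permutation p = 0.013, 0.0069 and 0.0042, adjusted p = 0.10 to 0.12). The 2 animals left out were BO57 and BO58 in stem and Paneth libraries, and BO57 and BP04 in TA libraries.

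The level of an animal in 1 fraction was also related to its level in another. For Reg3g, stem and TA libraries gave r = 0.97 (exact permutation p = 0.00032, adjusted p = 0.0048 over 15 relations; rho = 0.98, p = 0.0004), and r = 0.98 without BO57 and BO58 (adjusted p = 0.021). Stem and Paneth libraries gave r = 0.89 for Reg3g (exact permutation p = 0.0035, adjusted p = 0.013; rho = 0.79, p = 0.028) and 0.88 for Reg3b (p = 0.0020, adjusted p = 0.011; rho = 0.86, p = 0.011). Without BO57 and BO58 these fell to r = 0.65 and 0.69 (adjusted p = 0.35 each), so neither call held without those 2 animals, the farthest from the median. Stem and TA libraries gave r = 0.88 for Reg3b (exact permutation p = 0.0022, adjusted p = 0.011; rho = 0.86, p = 0.011), and 0.86 without BO57 and BO58 (adjusted p = 0.10). TA and Paneth libraries did not pass for either gene (r = 0.71 for Reg3b and 0.78 for Reg3g, exact permutation, adjusted p = 0.10 and 0.065), and Reg1, Reg3a and Reg4 passed between no fractions.

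In Paneth libraries, Reg3b and Reg3g moved with the summed goblet cell markers, which took 0.218% to 0.695% of counts there. There Pearson's r was 0.96 for Reg3g (exact permutation p = 0.00012, adjusted p = 0.011 over 90 relations looked for after the values were seen; rho = 0.98, p = 0.0004) and 0.93 for Reg3b (p = 0.00077, adjusted p = 0.035; rho = 0.90, p = 0.0046). Without BO57 and BO58 r was 0.90 and 0.80, and neither passed (exact permutation, adjusted p = 0.38 and 0.80). In stem libraries r with the goblet markers was of the opposite sign, at -0.73 for each gene (exact permutation, adjusted p = 0.28 for Reg3g and 0.25 for Reg3b), and in TA libraries it was 0.57 and 0.53 (adjusted p = 0.48 and 0.52). Within the goblet list, Ccl6 and Agr2 had the highest means in Paneth libraries. Ccl6 stood at 2260 ± 864 CPM in het and 2676 ± 1159 CPM in hom, and Agr2 at 1852 ± 1291 and 1666 ± 482 CPM. Single genes of the list differed. Zg16 stood at 0.715 CPM in BN45 and 410 CPM in BP03, the Paneth libraries highest in Reg3g. Muc2 stood at 1309 CPM in BN45 and 818 CPM in BP03. In BO57 and BO58, the Paneth libraries lowest in Reg3g, Muc2 stood at 258 and 107 CPM and Zg16 at 11.7 and 4.93 CPM. With the summed Paneth cell markers in Paneth libraries r was 0.85 for Reg3g and 0.84 for Reg3b (exact permutation, adjusted p = 0.092 each). No marker relation passed on CPM of library totals, and the part of goblet or Paneth cell numbers in the Reg3 levels was not tested.

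The proportion of Reg3g to Reg3b differed between fractions. This ratio of counts, a measure chosen after the values were seen, does not depend on library scaling. It was 2.05 ± 1.03 in stem, 2.31 ± 0.508 in TA and 5.26 ± 1.44 in Paneth libraries (SD, n = 8 each). In Paneth libraries it ran from 3.94 to 8.27 and in TA libraries from 1.69 to 3.02, without overlap. Paneth libraries were 2.26-fold above TA libraries (mean log2 difference 1.17, SD 0.50, higher in 8 of 8 animals) and 2.71-fold above stem libraries (1.44, SD 0.41, 8 of 8). The two-sided exact sign-flip permutation p was 0.00781 for each, the smallest 8 animals can give, and 0.0117 adjusted over 3 comparisons. TA and stem libraries differed by log2 0.26 (SD 0.57, 6 of 8 animals, exact permutation p = 0.234). Het and hom had ratios of 1.51 ± 0.167 and 2.59 ± 1.30 in stem, 2.17 ± 0.544 and 2.45 ± 0.502 in TA and 5.02 ± 0.912 and 5.49 ± 1.96 in Paneth libraries (n = 4 each), with exact permutation p of 0.143, 0.400 and 0.771, where 0.0286 is the smallest possible.

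**Figure D5:**
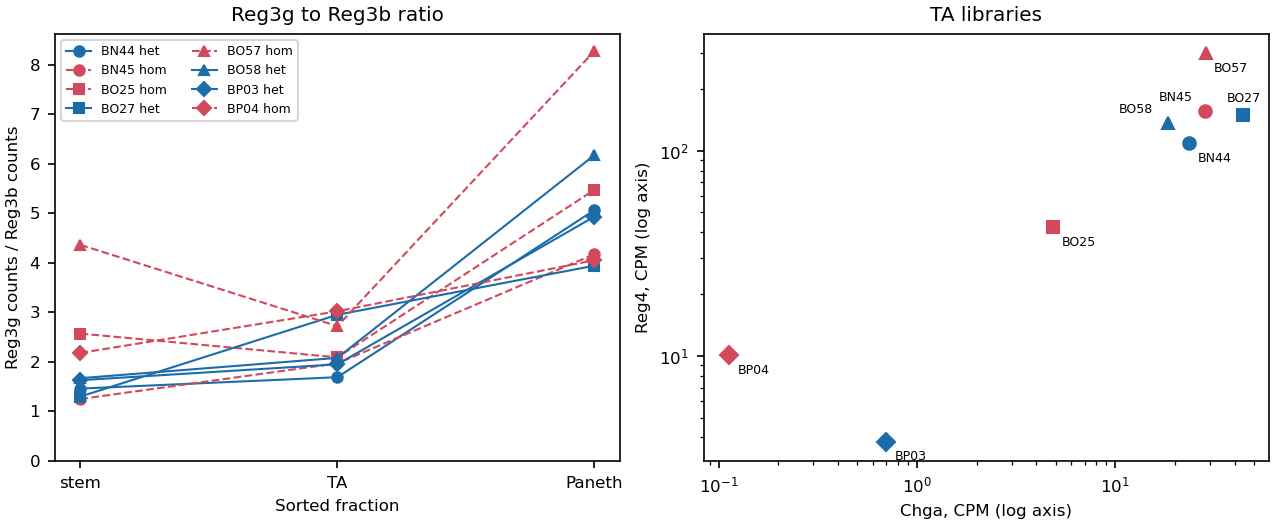
Left, the ratio of Reg3g to Reg3b counts in the stem, TA and Paneth fractions, 1 line per animal (solid blue het, dashed red hom); right, Reg4 against Chga in the 8 TA libraries, both in CPM on log axes. The ratio is highest in the Paneth library of every animal, from 3.94 to 8.27, and the TA libraries of BP03 and BP04 are low in both Reg4 and Chga.

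The genes whose levels were most like those of each member were found by Pearson's r of log2(CPM + 1) over the 24 libraries, among 9266 genes, and are given as a description. For Reg4 they were Chga (0.96) and Chgb (0.94), which encode the granule proteins chromogranin A and secretogranin 1, and then Amigo2, Arfgef3 and Mcf2l (0.92 to 0.93). After the group means were removed, Chga was again the closest to Reg4 (0.82). For Reg3b and Reg3g the closest gene was the other of the pair, at 0.90 over all libraries and 0.98 around the group means. Next to Reg3b came Duox2 (0.79), the gene of an epithelial oxidase that makes hydrogen peroxide, and next to Reg3g came Mia3 (0.86), Galnt5 (0.85), Galnt3 and P4hb (0.84 each), genes of protein export, mucin-type glycosylation and protein folding.

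The Reg1 and Reg3a patterns resembled those of other genes. Reg1 was most like Mttp, which loads lipid onto apolipoprotein B, and Mal2 (0.86 each), followed by the chloride exchanger gene Slc26a3, Glod5 and Clint1 (0.85 each). Reg3a was most like Clec2h, the disaccharidase gene Sis and the glutathione transferase gene Gsta1 (0.83 each), then St3gal4 (0.82) and Mkrn1 (0.80). Around the group means the closest to Reg3a were St3gal4 (0.76) and S100g (0.75), and the closest to Reg1 were Zc3h13 and Abcc2 (0.79 each). The libraries share group, animal and depth, so these values describe likeness in this set only.

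Genes of the pathway that acts on Reg3 genes were read from lists. Of 16 genes of interleukin-22 and STAT3 signalling, 13 were tested between Paneth and TA libraries in het, where 5 were higher and 0 lower in Paneth libraries (17.4% and 11.8% of all genes), with a median log2 change of 0.78 against 0.08 over all genes. In hom, 6 of 14 were higher and 0 lower (16.3% and 12.2% of all genes, median 0.71 against 0.08). The lists were counted with TMM scaling only, and the balance of directions over all genes depended on it. On library totals 1513 genes were higher and 3470 lower in het Paneth than in het TA libraries, instead of 2813 and 1908. In hom these were 1071 and 3778 instead of 2635 and 1973. Stat3, the transcription factor gene, stood at 44.3 ± 12.1 CPM in het Paneth and 20.6 ± 1.84 CPM in het TA libraries (log2 1.13, edgeR adjusted p = 0.0047). Il6ra, a cytokine receptor gene, stood at 5.59 ± 1.77 and 0.213 ± 0.212 CPM (adjusted p = 0.0057). Il22ra1, the receptor subunit for interleukin-22, was at most 0.683 ± 0.840 CPM on average in any group. In Paneth against stem libraries, 6 of 14 members were higher in het (17.3% of all genes; median 0.63 against 0.05) and 7 of 14 in hom (17.4%; 0.94 against 0.06). Between stem and TA libraries and between genotypes 0 genes of the list passed by edgeR, and 0 had an unadjusted p under 0.05.

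Genes of microbial sensing through MyD88 and NOD2 were read the same way. In Paneth against TA libraries, 2 of 15 were higher and 1 lower in het (17.4% and 11.8% of all genes), and 1 of 14 higher and 1 lower in hom (16.3% and 12.2%), with medians of -0.18 and 0.00 against 0.08 for all genes. The kinase gene Irak1 stood at 65.9 ± 28.1 CPM in het Paneth and 22.2 ± 2.73 CPM in het TA libraries (log2 1.59, edgeR adjusted p = 0.0035), and Myd88 itself at 20.2 ± 6.96 and 28.4 ± 10.6 CPM. Extl3, a reported receptor gene for Reg proteins, was higher in Paneth than in TA libraries in het (12.2 ± 7.89 against 3.39 ± 1.90 CPM, log2 1.86, edgeR adjusted p = 0.040) and in hom (9.05 ± 3.03 against 3.92 ± 0.536 CPM, log2 1.25, adjusted p = 0.020). Reg3d was lower in het Paneth than in het TA libraries (log2 -3.76, edgeR adjusted p = 0.018), at levels under 1 CPM.

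Other secreted antimicrobial products were called in both directions between fractions. Of 22 tested, 10 were higher and 4 lower in Paneth than in TA libraries, in het and again in hom. Of all genes, these shares were 17.4% and 11.8% in het and 16.3% and 12.2% in hom. Among the higher genes of the list, Lyz1, Ang4, Itln1, Mmp7, Defa17, Defa24 and Defa30 are also in the Paneth marker list. The Paneth label was checked on those markers, so their calls are not evidence separate from that label. The medians of the antimicrobial list, which include them, were 1.62 in het and 3.03 in hom against 0.08 for all genes. Between stem and TA libraries 0 were higher and 5 of 21 lower in stem in het (2.69% and 3.57% of all genes; median -0.32 against 0.02), and 0 were higher and 3 of 21 lower in hom (2.03% and 2.58%; -0.72 against 0.01). The lysozyme gene Lyz1 stood at 58961 ± 30095 CPM in het Paneth and 156 ± 62.1 CPM in het TA libraries (log2 8.59, edgeR adjusted p = 2.41e-05). In contrast, Dmbt1, which encodes a mucosal scavenger protein, stood at 2560 ± 386 CPM in het TA and 436 ± 84.8 CPM in het stem libraries (stem against TA log2 -2.55, edgeR adjusted p = 0.00030). Zg16, a bacteria-binding lectin gene of goblet cells, stood at 2099 ± 1335 CPM in het TA and 3.31 ± 2.42 CPM in het stem libraries (-9.34, adjusted p = 0.0023), and is also in the goblet marker list. Between genotypes 0 antimicrobial genes passed by edgeR, with 0 in stem, 1 in TA and 0 in Paneth libraries at an unadjusted p under 0.05, and 0 sensing genes passed, with 1, 1 and 2.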

How the data were processed

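RNA of sorted cells was sequenced from template-switch cDNA. The authors deposited unnormalized counts for each gene. The submitters' processing notes name featureCounts 2.0.1, bcl2fastq 2.20.0 and mm10. Per the file headers, counting was unstranded, with Ensembl release 98 models and a mapping quality of at least 1. An antisense partner therefore cannot be told apart from a gene. Which version of the aligner was used is not given in these sources. The 92 ERCC sequences (at most 6 counts) were left out.

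Counts were tested as deposited with the edgeR 4.0.16 quasi-likelihood test (R 4.3.3, limma 3.58.1) after TMM and filterByExpr. Each pair of groups was fitted alone, interactions in 1 fit of 24 libraries, and p-values were adjusted by Benjamini-Hochberg over all genes at 0.05. Fold changes come from those fits, and levels from TMM over all 24 libraries. DESeq2 was 1.42.0, and correlations, permutations and plots used scipy 1.17.1, numpy 2.4.6, pandas 2.3.3, matplotlib 3.10.9 and biopython 1.88 in Python 3.11.15. Correlations used a pseudocount of 1 CPM. The fits were tested on simulated data.

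Titles name the same animal in the 3 fractions. The main fits between fractions and the interactions held no term for the animal, so they treated libraries of 1 mouse as independent. The animal was the block only in the alternative fits named so. Deviations from group means of same-animal libraries correlated at -0.06 to 0.57 over 14229 genes in 24 pairs, and in 22 the own animal correlated best.

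The 5 members and the lists were chosen with earlier results of these data known. The rule named the 5 members, Reg2, Reg3d, Extl3 and Setd1a, up to 3 genes per list of smallest p and, per member, the 5 genes of highest likeness among those with a mean of at least 5 CPM with a named symbol. Il22ra1, Myd88, Chga, Gip, Fabp1 and Prss2 were named after their values were seen. Gene positions and transcripts came from GENCODE M21, upstream sequences from RefSeq (GRCm38.p6). Markers of immune, stromal and endothelial cells were counted too: immune markers took at most 0.0127% of counts. Animals are separate mice. Alternatives were DESeq2 size factors, the DESeq2 test, no filter, all 24 libraries in 1 fit, the animal block, leaving out each animal and, added after seeing the data, library totals.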

Additional observations from a re-analysis of the deposited data

How the results depend on the processing

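Of 330 values of single members under other settings, 304 kept direction and side of the threshold, 5 lost and 11 gained a call and 10 changed sign; of 360 that leave out 1 animal, 303 kept both, 15 lost and 3 gained a call and 39 changed sign. No value that changed sign was called. The counts of called members moved as follows, and the cause was not tested. Between stem and TA, the 2 members in het became 1 (Reg4) in 1 fit of all 24 libraries, and 3 without the filter, by DESeq2 (each adding Reg4) and with the animal as replicate block (adding Reg3b). The shares of all genes called in these settings, in that order, were 4.39%, 2.71%, 12.1% and 11.4%. The 2 in hom became 1 in the fit of 24, 4 with the block and 3 by DESeq2 (adding Reg4), against 3.87%, 8.94% and 9.85% of all genes. Between Paneth and TA in het, 1 was called as 2 without the filter on low counts and as 2 with the animal as replicate block. All genes were called at 14.5% and 29.1% there. Between Paneth and stem, 2 in het became 3 without the filter (adding Reg3b), against 14.6% of all genes. The 3 in hom became 1 on library totals and 4 with the block (adding Reg3b), against 29.8% and 30.1% of all genes. In het, leaving out 1 animal gave 0 to 2 of 5 for stem against TA and 0 to 2 for Paneth against TA. It gave 1 to 3 for Paneth against stem. In hom these counts, in that order, were 1 to 2, 1 to 2 and 1 to 3. Calls over all genes fell too. In het they were at most 801, 4259 and 4137, against 1013, 4721 and 4600 with all 4 animals. In hom they were at most 417, 3657 and 4086, against 736, 4608 and 4955. A call that ended without 1 animal therefore does not by itself show dependence on that animal. No paired analysis was possible between genotypes because the labels give no number, litter or batch that pairs het with hom animals. The 3 relations between members past the threshold became 0, and the 4 between fractions 1, without the 2 animals farthest from the median. The 2 relations with markers became 0 on library totals and 0 without those 2 animals. With 6 animals fewer permutations are possible.

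Signs that turned were all of uncalled values. On library totals they were -0.38 for Reg3b in Paneth against TA in het, -0.34 for Reg3a in Paneth against stem in het, -0.09 for Reg3g in Paneth against TA in hom, -0.32 for Reg1 in Paneth against stem in hom, and -0.09 for Reg3a and -0.04 for Reg4 in the hom effect in Paneth less TA. With the animal as replicate block they were -0.27 for Reg3b in Paneth against TA in het, -0.04 for Reg3a in the hom effect in Paneth less TA, and 0.20 for Reg3b and 0.09 for Reg4 in the hom effect in Paneth less stem. Leaving out 1 animal gave a range across 0 for the following log2 values. In hom against het they were Reg3b (-0.80 to 0.43) and Reg3g (-0.08 to 0.70) in stem, Reg3a (-0.08 to 0.37), Reg3b (-0.37 to 0.41), Reg3g (-0.25 to 0.48) and Reg4 (-0.52 to 0.74) in TA, and Reg3a (-0.40 to 0.68), Reg3b (-1.10 to 0.31) and Reg3g (-1.07 to 0.25) in Paneth libraries. Between fractions they were Reg3b in Paneth against TA (-0.15 to 0.45 in het, -0.52 to 0.29 in hom), Reg1 in Paneth against stem (-0.34 to 1.10 in het, -0.10 to 0.61 in hom) and Reg3a in Paneth against stem in het (-0.46 to 1.05). In the hom effect they were Reg3b (-0.50 to 0.35) and Reg4 (-0.06 to 1.42) in stem less TA, Reg3a (-0.40 to 0.45) and Reg4 (-0.52 to 1.31) in Paneth less TA, and Reg1 (-0.89 to 0.69) and Reg4 (-1.01 to 0.67) in Paneth less stem. The log2 ratio of Reg3g to Reg3b ran from 1.11 to 1.28 for Paneth over TA and from 1.38 to 1.52 for Paneth over stem without any 1 animal (exact permutation p of at most 0.0156).

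Counts over all genes, the background of each member count, also moved. In hom against het, edgeR called 2 genes in stem libraries, DESeq2 184 and the fit of 24 libraries 8. In TA libraries these were 0, 72 and 1, and in Paneth libraries 0, 6 and 2, with 8 without the filter and 2 on library totals. Between stem and TA, 1013 genes in het became 1966 by DESeq2 and 1848 with the animal block, and 736 in hom became 1572 and 1427. Between Paneth and TA, 2813 higher and 1908 lower genes in het became 1513 and 3470 on library totals. In hom, 2635 and 1973 became 1071 and 3778. Between Paneth and stem, 2809 and 1791 in het became 1497 and 3448, and 2819 and 2136 in hom became 1223 and 3616. In the interactions 0, 1 and 0 became 14, 23 and 48 by DESeq2, and Paneth less stem held 2 with the block and 1 without the filter.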
